A study of Mus musculus with 6 samples.

Results

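The mitochondrial carrier family was followed in liver RNA of mice on a diet without methionine and choline. Members were the protein-coding genes whose symbol begins with Slc25a, together with Ucp2 and Ucp3. This gave 49 genes among the 52550 identifiers of the count table. The livers came from 3 Slc7a11-LTG mice (TG) and 3 control mice (WT), all of them males aged 8 weeks and all kept on the MCD diet for 1 week. Slc7a11 encodes xCT, the subunit that carries cystine into cells in exchange for glutamate. The sources used here do not give the promoter or cell type that drives the transgene, nor litters or cages. Levels are shown as CPM, read counts scaled by library size with TMM, a correction for differences in RNA composition between libraries. Library totals lay between 16016640 and 17463329 counts, so that 3 counts correspond to 0.172 to 0.187 CPM before TMM scaling. TMM scaling moves this floor, and the 3 counts of Ucp3 in WT replicate 2 stood at 0.227 CPM.

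Mitochondrial carriers are small proteins of the inner mitochondrial membrane that pass metabolites between the cytosol and the matrix, usually by exchange of one solute for another. They supply the matrix with phosphate, ADP, amino acids, cofactors, iron and glutathione, and they export ATP, citrate and aspartate. In liver they serve urea synthesis, glucose production, fat synthesis and the oxidation of fatty acids. The uncoupling proteins are a branch of the same family. UCP2 is known to exchange aspartate and malate for phosphate, and in liver its RNA is known from macrophages and from hepatocytes of fatty livers.

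Slc7a11 checked the labels. Its level was 4416, 1377 and 2907 CPM in TG replicates 1 to 3, against 2.92, 3.33 and 10.6 CPM in WT replicates 1 to 3, and no liver went against its label. Hepatocyte RNA was present in every liver, with Alb, the albumin gene, between 69209 and 76489 CPM in TG livers and between 74261 and 136453 CPM in WT livers. TG replicate 3 stood nearer to WT replicates 2 and 3 than to TG replicates 1 and 2. This was read from Pearson correlations of log values over genes, which are no replicates of a condition. They were 0.952, 0.958 and 0.972 with WT replicates 1 to 3, and 0.956 and 0.943 with TG replicates 1 and 2. Counts of members and the fold changes of several named members are also given without TG replicate 3.

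Of the 49 members, 44 had counts in all 6 livers and 43 had enough counts to be tested. Slc25a41 and Slc25a54 had 0 counts in every liver, which allows up to 0.172 to 0.187 CPM before TMM scaling, depending on the library. The other 4 members below the filter on low counts were Ucp3, Slc25a2, Slc25a31 and Slc25a43, each with 13 counts or fewer in any liver.

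Levels of different genes were compared per length, as CPM per kilobase of the merged exons of each gene. On this scale the highest carrier was Slc25a47, a liver-enriched member, at 316 ± 55.7 in TG livers against 387 ± 128 in WT livers (mean ± SD of 3 livers each). Slc25a5, the adenine nucleotide translocase ANT2 that exchanges ADP for ATP, had 287 ± 43.4 in TG livers against 389 ± 66.3 in WT livers. Slc25a39, which imports glutathione into mitochondria, followed at 144 ± 22.3 in TG livers against 184 ± 21.7 in WT livers. Averaged over the 6 livers, these levels per length lay above those of 99.1%, 99.0% and 98.0% of all tested genes. Slc25a47 and Slc25a5 did not differ from each other beyond their spread. Next in the order of levels per length came the citrin gene Slc25a13, the phosphate carrier Slc25a3, the citrate carrier Slc25a1, the glutamate carrier Slc25a22, the ornithine carrier Slc25a15, the ATP-Mg/phosphate carrier Slc25a25 and the dicarboxylate carrier Slc25a10. Their group means ran from 48.3 to 74.6 in TG livers and from 63.9 to 92.5 in WT livers, with SDs that overlapped between neighbours. Ucp2 stood lower in this order, at 15.95 ± 7.50 in TG livers against 4.04 ± 0.178 in WT livers.

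**Figure D1:**
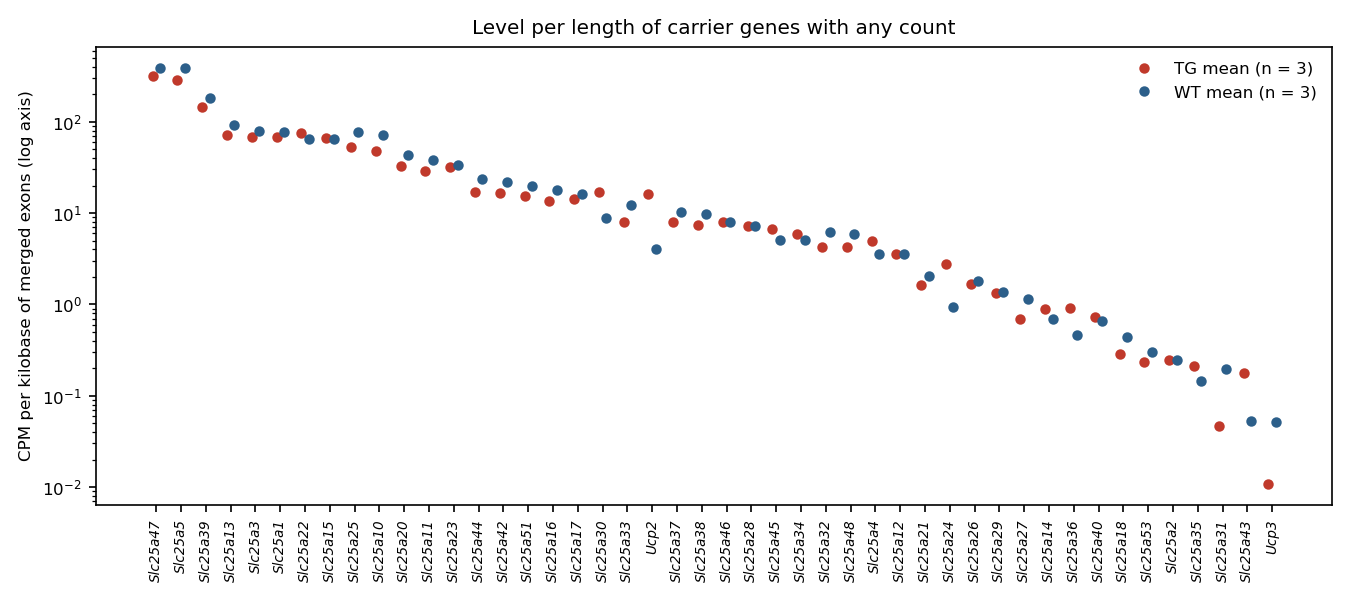
Level per length of 46 carrier genes with counts, as CPM per kilobase of merged exons on a log axis, with the mean of 3 TG livers left of the mean of 3 WT livers for each gene; 1 gene with counts is not shown. Slc25a47, Slc25a5 and Slc25a39 have the highest levels, and Ucp2 and Slc25a24 have the widest gap between TG and WT among tested genes.

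The comparison of TG with WT livers asks how carrier RNA differed when Slc7a11 was overexpressed on this diet. Ucp2, Slc25a24, Slc25a36, Slc25a30 and Slc25a14 lay higher in each TG liver than in any WT liver, and Slc25a33, Slc25a32, Slc25a5 and Slc25a39 lay lower in each. These 5 and 4 members stand beside 9.22% and 6.14% of all tested genes, and the 9 together beside 15.4%. With library size as the only scaling 5 lay above and 2 below, and with upper quartile scaling 5 above and 3 below. Of all 14031 tested genes, 1572 lay above and 317 below with library size only, and 1352 above and 823 below with upper quartile scaling. None of the 43 tested members passed edgeR's quasi-likelihood test after Benjamini-Hochberg adjustment over all genes, nor did any of the 14031 genes (0.0%). At an unadjusted p below 0.05 there were 6 members, against 11.1% of all tested genes. Of these, Ucp2, Slc25a24, Slc25a30 and Slc25a36 were higher in TG and Slc25a33 and Slc25a32 lower, 4 and 2 members against 8.68% and 2.37% of all tested genes. Without TG replicate 3 the numbers were 5 and 2, against 9.91% and 3.11%, with Slc25a45 added among the higher ones and Slc25a37 in place of Slc25a33 among the lower ones. DESeq2 called 2 members, Ucp2 and Slc25a24, both higher in TG, where it called 2.78% of all genes in either direction and 2.52% as higher. Limma voom called 0 members and 0.00713% of all genes.

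Most of the other members had a mean below that of WT livers and did not pass the test. The median log2 fold change of the tested members was -0.23, against -0.03 for all tested genes, and 29 of 43 members were below 0, against 53.8% of all genes. With library size as the only scaling the medians were -0.09 and 0.09, and 24 members were below 0. The members' median by liver, on the scale of log2(CPM + 0.5) less the average of the WT livers, came to -0.03, -0.43 and -0.21 for TG replicates 1 to 3. For WT replicates 1 to 3 it came to 0.06, 0.21 and -0.19, so that the groups overlapped. The summed level of the family was 5269 ± 1041 CPM in TG livers against 6199.6 ± 1496 CPM in WT livers (mean ± SD of 3 livers each), and the groups overlapped. After the same TMM scaling the sum over all genes was also lower, at 960496 ± 81142 CPM in TG livers against 1055464 ± 163699 CPM in WT livers. Part of the family's difference thus comes with the scaling.

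**Figure D2:**
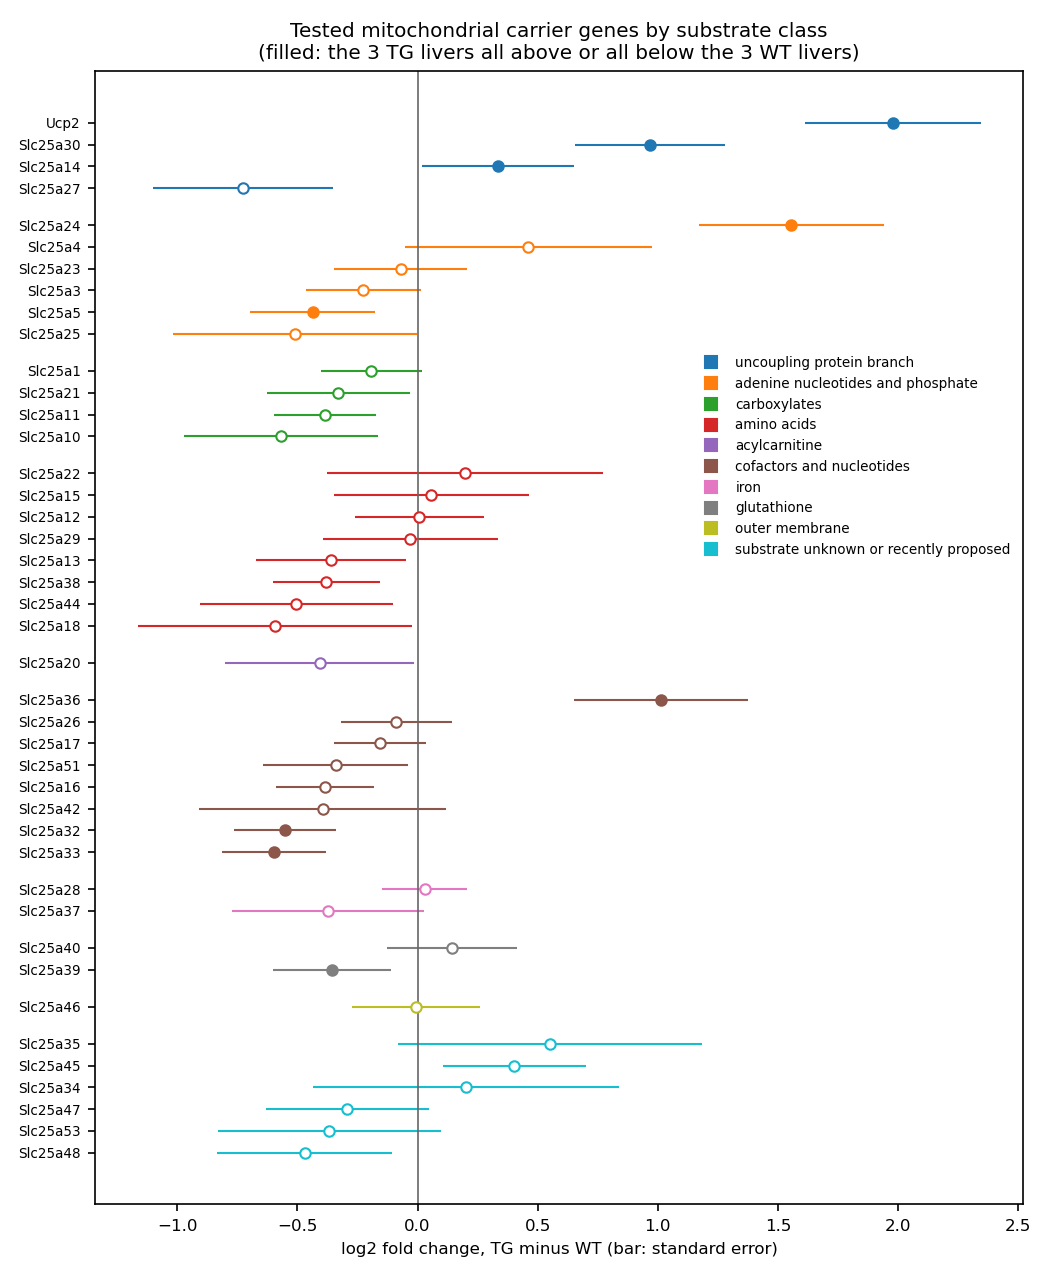
Log2 fold change (TG minus WT) of 42 tested carrier genes with its standard error, arranged by the substrate class of the carrier; 1 of the 43 tested genes is not shown. Filled symbols mark the 9 genes whose 3 TG livers lie all above or all below the 3 WT livers, and Ucp2 at 1.98 and Slc25a24 at 1.56 lie farthest to the right.

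In the uncoupling protein branch, Ucp2 was 3.94-fold higher in TG livers. It stood at 123, 157 and 54.2 CPM in TG replicates 1 to 3, against 27.9, 27.2 and 29.6 CPM in WT replicates 1 to 3. The WT livers were nearly equal, while the TG livers ranged widely with replicate 3 the lowest, and the groups did not overlap. The log2 fold change was 1.98 (SE 0.37), with an adjusted p of 0.343 in edgeR's quasi-likelihood test and 0.000433 in DESeq2, and 0.000433 to 0.930 over all alternatives. Without TG replicate 3 the log2 fold change was 2.28 (SE 0.20), and edgeR's adjusted p of 0.0125 made Ucp2 the 1 member called, in a fit that called 2.11% of all genes. As that liver had the lowest Ucp2 level of the TG group, leaving it out widens the difference by construction. With each other liver left out in turn, edgeR's adjusted p was 0.260 to 0.930. Ucp2 is annotated at chr7:100493337-100502020 on the plus strand (ENSMUSG00000033685) in build mm10. It shares 305 of 6989 exonic bases with Dnajb13 on the other strand, and Dnajb13 stood at 1.13 CPM in TG livers against 0.389 CPM in WT livers.

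Summed markers of macrophages, neutrophils and stellate cells were also higher in mean in TG livers. B and plasma cell markers summed to a mean of 19.7 CPM in TG livers against 6.54 CPM in WT livers. In the same order the sum was 5.01 against 3.22 CPM for T and NK cells and 19.1 against 11.3 CPM for cholangiocytes. It was 186 against 147 CPM for endothelial cells and 37.1 against 35.8 CPM for erythroid cells, with overlapping groups in all of these. Positive fold changes were seen in 2 of 4 tested B and plasma cell markers, 3 of 3 T and NK cell markers and 2 of 5 cholangiocyte markers. The same held for 5 of 7 endothelial and 4 of 5 erythroid markers. Hepatocyte markers, given below, were lower in mean. All 14 macrophage markers had a higher mean in TG livers, with none at 0 in any liver. Their summed level was 2006, 3409.8 and 617 CPM in TG replicates 1 to 3, against 433, 374 and 632 CPM in WT replicates 1 to 3. Cd68, a lysosomal protein of macrophages, stood at 45.5, 48.7 and 24.5 CPM in TG livers against 12.8, 8.17 and 13.8 CPM in WT livers. Adgre1, the F4/80 antigen, stood at 82.3, 163 and 20.6 CPM in TG livers against 15.7, 10.3 and 28.1 CPM in WT livers. Clec4f, a receptor of resident Kupffer cells, stood at 299.8, 455 and 119.6 CPM in TG livers against 82.4, 94.4 and 130.2 CPM in WT livers. TG replicate 3 lay inside the WT range for Adgre1, Clec4f and the summed level, and above every WT liver for Cd68, Lyz2, Gpnmb and Trem2, 4 of the 14 markers. Its Ucp2 level of 54.2 CPM was above the highest WT level of 29.6 CPM. Neutrophil markers summed to 94.4, 226 and 5.54 CPM in TG replicates 1 to 3, against 7.68, 2.87 and 5.30 CPM in WT replicates 1 to 3. Stellate cell and fibroblast markers, 7 of 8 of them higher in mean, summed to 229, 207 and 211 CPM in TG livers against 176, 113 and 175 CPM in WT livers, and these sums did not overlap between the groups. In bulk RNA, more cells of a type and more RNA per cell cannot be told apart, and the part of these cells in the Ucp2 level was not tested.

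**Figure D3:**
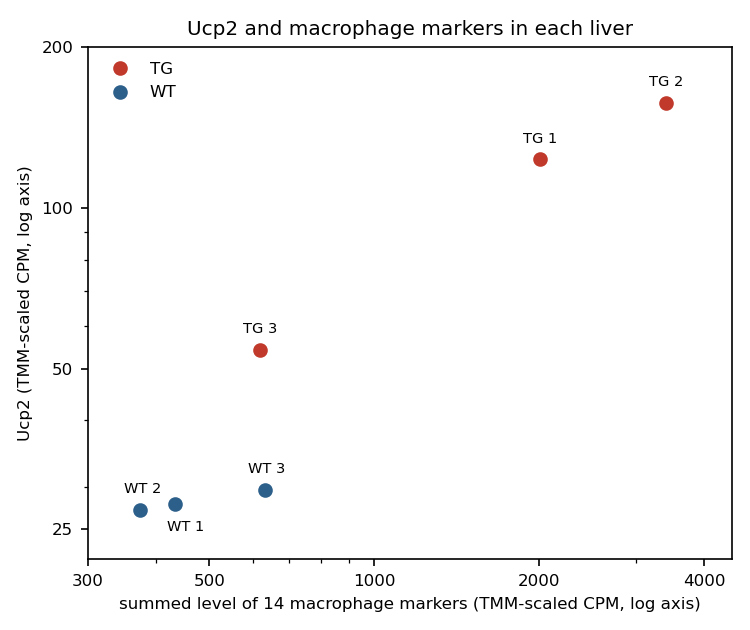
Ucp2 level (TMM-scaled CPM, log axis) against the summed level of 14 macrophage markers (TMM-scaled CPM, log axis) in each liver, with 1 point per mouse. TG replicates 1 and 2 are high on both axes, and TG replicate 3 has a marker sum of 617 CPM, inside the WT range, with Ucp2 at 54.2 CPM, above the 3 WT livers.

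The other members of this branch did not all lie on the same side. Slc25a30 is the kidney mitochondrial carrier, whose human counterpart is known to transport inorganic anions such as sulfate and thiosulfate. Its level was 114, 62.95 and 58.2 CPM in TG replicates 1 to 3, against 33.8, 52.3 and 34.4 CPM in WT replicates 1 to 3. Every TG liver lay above every WT liver, by a small margin between TG replicate 3 and WT replicate 2, and TG replicate 1 was the highest. The log2 fold change was 0.97 (SE 0.31), with an adjusted p of 0.360 in edgeR's quasi-likelihood test and 0.116 in DESeq2, and 0.116 to 0.930 over all alternatives. It was 1.12 (SE 0.31) without TG replicate 3 and 0.60 (SE 0.25) without TG replicate 1. Slc25a14, a brain-enriched member of the branch, stood at 2.19, 1.92 and 2.13 CPM in TG livers against 1.52, 1.82 and 1.61 CPM in WT livers. These levels rest on 24 to 42 counts per library, and the log2 fold change of 0.33 (SE 0.32) was about the size of its error. Slc25a27, another brain-enriched member, had 2.61, 2.26 and 3.35 CPM in TG livers against 6.67, 3.71 and 3.28 CPM in WT livers, with overlapping groups. Ucp3, the uncoupling protein of skeletal muscle, had 0, 0 and 2 counts in TG replicates 1 to 3 against 4, 3 and 0 counts in WT replicates 1 to 3, near the floor of 3 counts.

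Promoter bases are shown for the 4 members at an unadjusted p below 0.05 and higher in TG, for Slc25a33, which was lower, and for Ucp3, the nearly silent neighbour of Ucp2. The sequences are RefSeq promoters on GRCm38, the same build as mm10, and begin 250 bases before the annotated start, with bases inside annotated exons left out. They lie within chr7:100493108-100493336 and chr3:109122899-109123148 on the plus strand, chr14:75787038-75787287, chr9:97111158-97111291 and chr4:149774278-149774517 on the minus strand, and chr7:100472741-100472989 on the plus strand. Capitals mark matches, on either strand, to 9 motifs. These were the GC box GGGCGG, the TATA box TATAAA, the CCAAT box, the E-box CACGTG, the CRE TGACGTCA, the AP-1 site TGANTCA, the antioxidant response element TGACNNNGC, the STAT site TTCNNNGAA and the nuclear receptor hexamer AGGTCA.
Ucp2: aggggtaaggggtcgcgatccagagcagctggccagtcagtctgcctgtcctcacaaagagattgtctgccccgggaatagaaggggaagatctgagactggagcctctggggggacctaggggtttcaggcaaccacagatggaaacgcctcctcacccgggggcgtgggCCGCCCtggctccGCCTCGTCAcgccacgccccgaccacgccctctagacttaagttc
Slc25a24: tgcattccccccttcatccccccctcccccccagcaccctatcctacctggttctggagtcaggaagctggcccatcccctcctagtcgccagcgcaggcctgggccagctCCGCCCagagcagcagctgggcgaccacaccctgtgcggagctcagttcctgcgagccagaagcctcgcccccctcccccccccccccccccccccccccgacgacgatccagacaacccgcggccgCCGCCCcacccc
Slc25a30: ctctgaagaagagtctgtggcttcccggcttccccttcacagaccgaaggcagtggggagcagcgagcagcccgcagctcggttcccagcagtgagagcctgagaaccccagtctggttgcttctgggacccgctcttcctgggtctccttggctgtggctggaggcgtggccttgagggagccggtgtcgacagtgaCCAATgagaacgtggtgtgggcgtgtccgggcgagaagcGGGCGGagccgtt
Slc25a36: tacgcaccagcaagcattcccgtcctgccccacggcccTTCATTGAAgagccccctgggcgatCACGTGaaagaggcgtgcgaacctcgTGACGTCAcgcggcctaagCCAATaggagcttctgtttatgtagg
Slc25a33: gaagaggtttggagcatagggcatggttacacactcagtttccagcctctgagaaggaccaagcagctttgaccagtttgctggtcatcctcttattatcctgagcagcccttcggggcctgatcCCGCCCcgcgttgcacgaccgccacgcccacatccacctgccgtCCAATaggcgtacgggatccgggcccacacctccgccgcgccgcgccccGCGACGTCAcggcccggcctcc
Ucp3: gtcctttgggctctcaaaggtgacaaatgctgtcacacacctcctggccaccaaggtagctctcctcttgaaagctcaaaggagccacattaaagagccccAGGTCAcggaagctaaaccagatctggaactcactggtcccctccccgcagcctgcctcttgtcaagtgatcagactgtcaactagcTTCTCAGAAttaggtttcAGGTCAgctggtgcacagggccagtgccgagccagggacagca
No matches overlapped one another in the printed stretches. The Ucp2 stretch holds a GC box and a match to the antioxidant response element, the letters bound by NRF2 with small MAF proteins. That of Slc25a24 holds GC boxes only, and that of Slc25a30 a GC box and a CCAAT box. The Slc25a36 stretch holds a STAT site, an E-box, a CRE and a CCAAT box. Slc25a33 has a GC box and a CCAAT box like Slc25a30, and a match to the antioxidant response element like Ucp2. The Ucp3 stretch has a pair of nuclear receptor hexamers and a STAT site. No motif was common to the stretches of the 4 members that were higher, but these stretches differ in extent. That of Slc25a36 has 134 bases and ends at position -117 from the start, and bases nearer the start were left out of this comparison. GC boxes at -79 in Ucp2, -12 in Slc25a24 and -13 in Slc25a30 lie in that span, so a motif shared there could not be seen.

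Promoters were matched for 38 of the 49 members, 48 promoters in all, and compared with all 32851 promoters of that length. Here all 250 bases before the start were searched, with bases inside annotated exons included, unlike in the printed stretches. The GC box was in 68.8% of the carrier promoters and in 32.7% of all, and the antioxidant response element in 20.8% and 10.2%. The E-box was in 16.7% of carrier promoters and 6.02% of all, the CCAAT box in 43.8% and 33.8%, and the CRE in 4.17% and 1.55%. The TATA box was in 4.17% of carrier promoters and 12.4% of all, the AP-1 site in 4.17% and 6.75%, the STAT site in 6.25% and 7.02%, and the nuclear receptor hexamer in 10.4% of carrier promoters and 4607 of the 32851. These shares are descriptions and were not tested.

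Among carriers of adenine nucleotides and phosphate, Slc25a24 lay higher in TG and the abundant members at or below the WT level. Slc25a24, a calcium-regulated carrier that exchanges ATP-Mg for phosphate, stood at 8.02, 13.3 and 7.01 CPM in TG replicates 1 to 3, against 3.43, 1.97 and 4.16 CPM in WT replicates 1 to 3. The libraries held 132, 235 and 138 counts in TG livers against 54, 26 and 80 counts in WT livers. All TG livers lay above all WT livers, with TG replicate 2 highest, as it was for Ucp2 and the summed macrophage markers, whose part in this level was not tested. The log2 fold change was 1.56 (SE 0.38), with an adjusted p of 0.343 in edgeR's quasi-likelihood test and 0.0174 in DESeq2, and 0.0174 to 0.930 over all alternatives. It was 1.70 (SE 0.42) without TG replicate 3 and 1.23 (SE 0.40) without TG replicate 2. The gene is annotated at chr3:109123149-109168457 on the plus strand (ENSMUSG00000040322). Its calcium-regulated relatives were more abundant per length. Slc25a23 had 167 ± 19.02 CPM in TG livers against 175 ± 58.6 CPM in WT livers (mean ± SD of 3 livers each). Slc25a25 had 408, 350.3 and 503 CPM in TG livers against 423, 1101 and 272 CPM in WT livers, with WT replicate 2 far above the other livers. The ratio of Slc25a23 to Slc25a24 per length, a pair chosen after its values were seen, was 8.20 to 15.01 in TG livers against 18.4 to 77.5 in WT livers. That of Slc25a25 to Slc25a24 was 11.5 to 31.3 in TG livers against 28.6 to 244 in WT livers, with overlapping groups.

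Slc25a5 stood at 542, 399 and 477 CPM in TG replicates 1 to 3, against 614, 759.7 and 546 CPM in WT replicates 1 to 3. The groups did not overlap, though TG replicate 1 and WT replicate 3 were almost equal. Its log2 fold change was -0.44 (SE 0.26), with an adjusted p of 0.595 in edgeR's quasi-likelihood test. Slc25a4, the translocase ANT1 of heart and muscle, had 11.4, 16.6 and 7.06 CPM in TG livers against 15.1, 4.31 and 5.98 CPM in WT livers. The ratio of Slc25a5 to Slc25a4 per length was 34.4 to 96.6 in TG livers against 58.1 to 252 in WT livers, so the heart and muscle form was the minor one in each liver. Pseudogene copies of these genes may share reads with them, so that single values are uncertain. Slc25a3, which brings in the phosphate for ATP synthesis, had 376 ± 52.7 CPM in TG livers against 440.2 ± 60.4 CPM in WT livers, a log2 fold change of -0.23 (SE 0.24). Slc25a31, the translocase of germ cells, had 4, 0 and 1 counts in TG livers against 13, 5 and 1 counts in WT livers.

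The 4 carboxylate carriers all had negative fold changes, none past the test and all with overlapping groups. Slc25a1, which exports the citrate used for fatty acid synthesis, stood at 150.3, 122 and 165 CPM in TG replicates 1 to 3, against 142, 192 and 167 CPM in WT replicates 1 to 3. Slc25a11, the oxoglutarate-malate exchanger of the malate-aspartate shuttle, had 70.6, 53.8 and 59.98 CPM in TG livers against 80.3, 98.9 and 61.8 CPM in WT livers, a log2 fold change of -0.39 (SE 0.21). Slc25a10, which exchanges malate or succinate for phosphate, had 179, 139.7 and 182 CPM in TG livers against 234, 388 and 120.5 CPM in WT livers. The WT livers of Slc25a10 lay on both sides of all TG livers. Slc25a21, the oxodicarboxylate carrier of lysine and tryptophan breakdown, was scarce, at 7.95 ± 2.24 CPM in TG livers against 10.004 ± 2.30 CPM in WT livers.

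The amino acid carriers of the urea cycle had overlapping groups. Slc25a15, which brings ornithine into the matrix for urea synthesis, stood at 570.0, 288 and 264 CPM in TG replicates 1 to 3, against 484, 371 and 224 CPM in WT replicates 1 to 3. Slc25a13, the aspartate-glutamate carrier citrin of liver, had 314, 263 and 244 CPM in TG livers against 413, 429 and 212 CPM in WT livers, a log2 fold change of -0.36 (SE 0.31). In both genes WT replicate 3 was the lowest of the 6 livers. The isoform of brain and muscle, Slc25a12, had 26.2 ± 6.43 CPM in TG livers against 26.02 ± 7.53 CPM in WT livers. Slc25a22, a proton-coupled glutamate importer, varied more within groups than between them, at 783, 222 and 337 CPM in TG livers against 553, 444 and 173 CPM in WT livers. Its isoform Slc25a18 had 9, 8 and 13 counts in TG livers against 5, 17 and 18 counts in WT livers. Slc25a38, which serves glycine import for heme synthesis, had 23.7, 15.8 and 21.5 CPM in TG livers against 27.5, 31.02 and 20.9 CPM in WT livers, a log2 fold change of -0.38 (SE 0.22). Slc25a44, reported as a carrier of branched-chain amino acids, had 63.9, 55.8 and 60.8 CPM in TG livers against 57.1, 50.6 and 148 CPM in WT livers, with WT replicate 3 alone far above the rest. Slc25a29, a carrier of basic amino acids, had 3.45 ± 1.19 CPM in TG livers against 3.52 ± 0.804 CPM in WT livers. Slc25a2, a second ornithine carrier, had 9, 2 and 7 counts in TG livers against 2, 7 and 7 counts in WT livers.

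Slc25a20 passes acylcarnitines into the matrix for fatty acid oxidation. It stood at 217, 129.6 and 128 CPM in TG replicates 1 to 3, against 248, 275 and 108 CPM in WT replicates 1 to 3. WT replicate 3 was the lowest of all 6 livers, so the groups overlapped, and the log2 fold change was -0.41 (SE 0.39). Without WT replicate 2 it was -0.17 (SE 0.43), and without WT replicate 3 it was -0.73 (SE 0.28), with an adjusted p of 0.290 in edgeR's quasi-likelihood test and 0.290 to 0.983 over all alternatives.

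Of 9 carriers of cofactors and nucleotides, 8 had negative fold changes and 1, Slc25a36, a positive one. With library size as the only scaling 2 of the 8, among them Slc25a26, were positive too. Slc25a33 and Slc25a36 are both known as carriers of pyrimidine nucleotides for mitochondrial DNA and RNA. Slc25a36 stood at 8.08, 13.2 and 5.28 CPM in TG replicates 1 to 3, against 4.57, 4.61 and 3.95 CPM in WT replicates 1 to 3. Slc25a33 stood at 17.3, 13.8 and 14.5 CPM in TG replicates 1 to 3, against 17.7, 28.1 and 23.3 CPM in WT replicates 1 to 3. The groups did not overlap for either gene, and the margin was narrow between TG replicate 1 and WT replicate 1 for Slc25a33. The log2 fold change of Slc25a36 was 1.01 (SE 0.36) with an adjusted p of 0.386 in edgeR's quasi-likelihood test, and that of Slc25a33 was -0.60 (SE 0.21) with an adjusted p of 0.386 in the same edgeR test. Without TG replicate 2 that of Slc25a36 was 0.61 (SE 0.33). Without TG replicate 3 they were 1.25 (SE 0.32) for Slc25a36 and -0.59 (SE 0.26) for Slc25a33. The ratio of Slc25a33 to Slc25a36 per length, a pair chosen after its values were seen, was 10.9, 5.35 and 13.9 in TG livers against 19.7, 30.9 and 29.97 in WT livers. Slc25a33 shares 281 of 1887 exonic bases with the antisense RNA Gm13068, which stood at 0.464 CPM in TG livers against 0.970 CPM in WT livers. An exact permutation test of 3 against 3 livers cannot give a p below 0.1.

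Slc25a32, which carries folate and FAD into mitochondria, stood at 23.1, 22.3 and 31.4 CPM in TG replicates 1 to 3, against 33.9, 46.4 and 32.5 CPM in WT replicates 1 to 3. The groups did not overlap, with TG replicate 3 close to WT replicate 3. The log2 fold change was -0.55 (SE 0.21), with an adjusted p of 0.398 in edgeR's quasi-likelihood test. Slc25a26 imports S-adenosylmethionine, the methyl donor made from methionine. It had 9.59, 7.69 and 7.01 CPM in TG livers against 9.08, 9.30 and 7.44 CPM in WT livers, with overlapping groups and a log2 fold change of -0.09 (SE 0.23), or 0.037 with library size as the only scaling. The coenzyme A carrier Slc25a16 had 62.001, 60.3 and 72.1 CPM in TG livers against 95.6, 94.7 and 63.8 CPM in WT livers, and Slc25a42, also for coenzyme A, had 99.1 ± 54.2 CPM in TG livers against 130.3 ± 64.9 CPM in WT livers. Slc25a51, the NAD importer, had 85.2 ± 25.9 CPM in TG livers against 108 ± 28.6 CPM in WT livers. The peroxisomal Slc25a17 had 40.9 ± 4.54 CPM in TG livers against 45.6 ± 9.08 CPM in WT livers.

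Slc25a39 and Slc25a40 import glutathione, which cells make from cysteine, the reduced form of the cystine that xCT takes up. Slc25a39 stood at 442, 326 and 419 CPM in TG replicates 1 to 3, against 447, 567 and 506 CPM in WT replicates 1 to 3. The groups did not overlap, but TG replicate 1 and WT replicate 1 were almost equal. The log2 fold change was -0.36 (SE 0.24), with an adjusted p of 0.641 in edgeR's quasi-likelihood test. Slc25a40, its close relative, had 5.22, 6.05 and 6.81 CPM in TG livers against 6.35, 4.24 and 5.77 CPM in WT livers, a log2 fold change of 0.14 (SE 0.27). The ratio of Slc25a39 to Slc25a40 per length was 164 to 258 in TG livers against 214 to 407 in WT livers. Of the 3 genes of glutathione synthesis, Gss, the synthetase, had a log2 fold change of -0.22 (SE 0.26) and Gclm, the modifier subunit of glutamate-cysteine ligase, of -0.14 (SE 0.27). Gclc, its catalytic subunit, named after its values were seen, had 0.09 (SE 0.41).

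The iron importers of the matrix, the mitoferrins, had overlapping groups. Slc25a37, mitoferrin 1, known from red cell precursors, stood at 31.8, 38.4 and 73.3 CPM in TG replicates 1 to 3, against 35.7, 67.7 and 82.6 CPM in WT replicates 1 to 3. Its log2 fold change was -0.37 (SE 0.40), or -0.85 without TG replicate 3 and -0.10 without WT replicate 3. Erythroid markers summed to 38.9, 47.3 and 24.9 CPM in TG livers against 48.6, 42.7 and 16.2 CPM in WT livers, and the livers with the highest Slc25a37 of each group, replicates 3, had the lowest erythroid sum of their group. Slc25a28, mitoferrin 2, had 27.3 ± 4.27 CPM in TG livers against 26.7 ± 2.59 CPM in WT livers. Of 14 heme and iron-sulfur genes, 13 had negative fold changes, 12 with library size only, and 0 passed edgeR's test after adjustment. Isca1, an iron-sulfur assembly factor, had 57.4, 44.1 and 46.5 CPM in TG livers against 67.4, 74.9 and 57.6 CPM in WT livers.

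Among members whose substrate is unknown or recently proposed, Slc25a47 stood at 1115, 784 and 927 CPM in TG replicates 1 to 3, against 756, 1518 and 1189 CPM in WT replicates 1 to 3. The WT livers spanned the whole TG range. Slc25a48, recently proposed to import choline, the nutrient left out of this diet, had 14.7, 12.6 and 15.8 CPM in TG livers against 22.4, 27.8 and 9.67 CPM in WT livers. Its log2 fold change was -0.47 (SE 0.36). Without WT replicate 2, its highest liver, it was -0.16 (SE 0.37), and without WT replicate 3, its lowest, it was -0.80 (SE 0.20), with an adjusted p of 0.262 in edgeR's quasi-likelihood test and 0.262 to 0.982 over all alternatives. Slc25a45 had a log2 fold change of 0.40 (SE 0.30), Slc25a34 one of 0.20 (SE 0.64) and Slc25a53 one of -0.37 (SE 0.46). Slc25a35 had 16, 17 and 8 counts in TG livers against 15, 5 and 5 counts in WT livers, and Slc25a43 had 9, 6 and 1 counts in TG livers against 0, 1 and 4 counts in WT livers. Slc25a46, a member of the outer membrane that takes part in mitochondrial fission and fusion, had 42.8 ± 11.8 CPM in TG livers against 43.03 ± 11.4 CPM in WT livers.

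**Figure D4:**
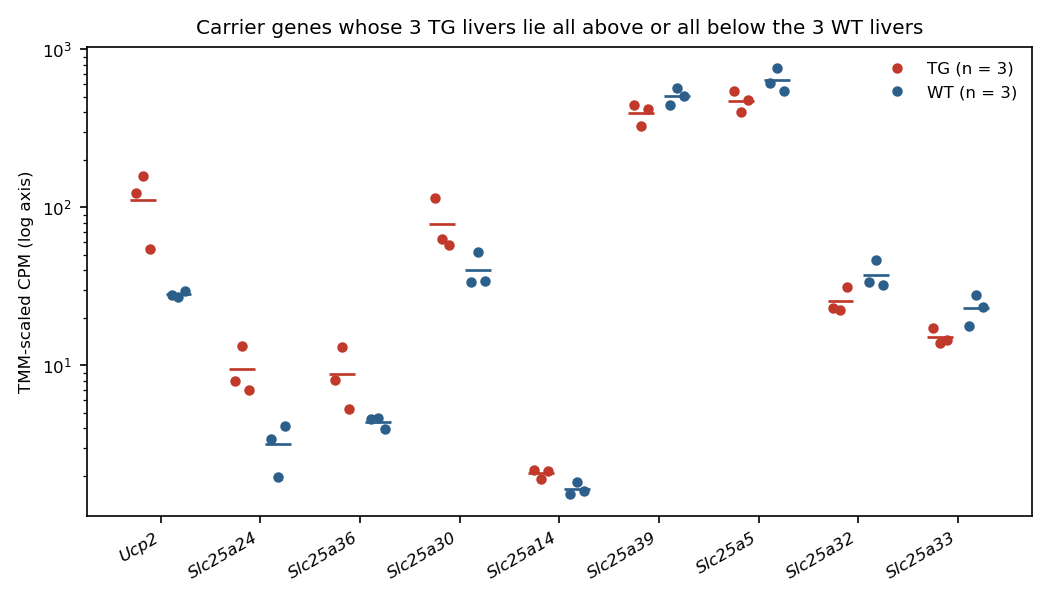
TMM-scaled CPM (log axis) of the 9 carrier genes whose 3 TG livers lie all above or all below the 3 WT livers, with TG left of WT, 1 point per liver and a line at the group mean. Ucp2 has the widest gap, between 54.2 CPM in the lowest TG liver and 29.6 CPM in the highest WT liver, while the groups of Slc25a5, Slc25a39, Slc25a33 and Slc25a32 nearly touch.

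Members of the family lie next to each other in the genome at 5 places, and the levels of such neighbours differed. Ucp3 ends 6904 bases before Ucp2 on the same strand of chromosome 7, and reached at most 0.254 CPM, against 27.2 to 157 CPM for Ucp2 over the 6 livers. Slc25a54 ends 6461 bases before Slc25a24 on chromosome 3 and had 0 counts. Slc25a41 lies 2056 bases from Slc25a23 on chromosome 17 and also had 0 counts. Slc25a43 lies 18448 bases from Slc25a5 on chromosome X and had 9 counts or fewer per liver. Slc25a29 and Slc25a47 on chromosome 12 are transcribed away from each other with 162 bases between them, and per length Slc25a29 had 1.32 ± 0.457 in TG livers against 1.35 ± 0.309 in WT livers, far below Slc25a47.

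Genes that work with the carriers were followed in 9 lists, with 74 of 77 genes tested. Of these, 65 had negative fold changes and 9 positive ones, with a median of -0.23 against -0.03 for all tested genes. With library size as the only scaling, 53 were negative and 21 positive, with a median of -0.09 against 0.09 for all tested genes. None passed edgeR's quasi-likelihood test after adjustment or DESeq2, where DESeq2 called 2.78% of all genes. At an unadjusted p below 0.05, 5 were lower and 0 higher, against 2.37% and 8.68% of all genes. All 14 tested genes of the machinery that imports carriers into the inner membrane were below 0 (median -0.24), and 12 of them with library size only. Among them, Tomm5, a small subunit of the outer membrane translocase, had 21.3, 17.7 and 23.6 CPM in TG livers against 26.4, 27.3 and 28.2 CPM in WT livers, and Tomm22, its receptor subunit, had 37.9 ± 2.76 CPM in TG livers against 47.5 ± 10.1 CPM in WT livers. All 3 outer membrane channels were below 0, 2 of them with library size only, with Vdac1 at 182, 167 and 205 CPM in TG livers against 222, 285 and 207 CPM in WT livers and Vdac3 at 76.9, 67.8 and 80.4 CPM in TG livers against 81.98, 92.4 and 88.6 CPM in WT livers. Among 17 tested transporters outside the family, 14 were below 0, but 8 with library size only. They included Mpc1, a subunit of the mitochondrial pyruvate carrier, at 11.2, 10.3 and 10.5 CPM in TG livers against 18.2, 16.7 and 12.9 CPM in WT livers, and Sfxn1, a serine transporter, at 97.8, 116 and 104 CPM in TG livers against 203, 172 and 110.1 CPM in WT livers.

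The enzymes beside the carriers were mostly lower in mean as well. All 6 urea cycle genes were below 0 (median -0.48), also with library size only, with Otc, which joins ornithine and carbamoyl phosphate, at 257, 229 and 272 CPM in TG livers against 364, 438 and 289.9 CPM in WT livers, and Cps1, which makes carbamoyl phosphate and is also on the list of hepatocyte markers, at 4308 ± 1606 CPM in TG livers against 6312 ± 2594 CPM in WT livers. Of 4 genes of the malate-aspartate shuttle 3 were below 0, with the cytosolic malate dehydrogenase Mdh1 at 385, 260.1 and 347 CPM in TG livers against 542, 610.4 and 367 CPM in WT livers and the mitochondrial aspartate aminotransferase Got2 at 429.7 ± 56.9 CPM in TG livers against 513 ± 92.6 CPM in WT livers. Of 6 carnitine genes 4 were below 0, and 3 with library size only, with Cpt2, the acyltransferase on the matrix side, at 159 ± 48.5 CPM in TG livers against 197 ± 78.7 CPM in WT livers, and Slc22a5, the carnitine transporter of the cell membrane, at 92.9 ± 22.4 CPM in TG livers against 144 ± 103 CPM in WT livers. Of 7 coenzyme A and thiamine genes 6 were below 0, with Pank3, a pantothenate kinase, at 54.9, 62.1 and 59.6 CPM in TG livers against 76.9, 89.04 and 69.8 CPM in WT livers and Ppcs, the next enzyme of the path, at 27.8 ± 8.18 CPM in TG livers against 39.6 ± 7.10 CPM in WT livers. Hepatocyte markers, 7 of 8 of which were below 0 and 6 with library size only, summed to 102089, 85153 and 86993 CPM in TG livers against 130231, 175418 and 90467 CPM in WT livers, and their part in these differences was not tested. The genes named from each list were those with the smallest p. Of the 9 list genes with a positive fold change, Sfxn3, a relative of Sfxn1, was the 1 with all TG livers above all WT livers, at 4.68, 2.99 and 2.44 CPM in TG livers against 2.29, 1.82 and 2.08 CPM in WT livers. Cpt1a, the acyltransferase of the outer membrane, had a log2 fold change of 0.13 (SE 0.44) and Got1, the cytosolic aspartate aminotransferase, one of 0.05 (SE 0.93), and these 3 genes were chosen after their values were seen.

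**Figure D5:**
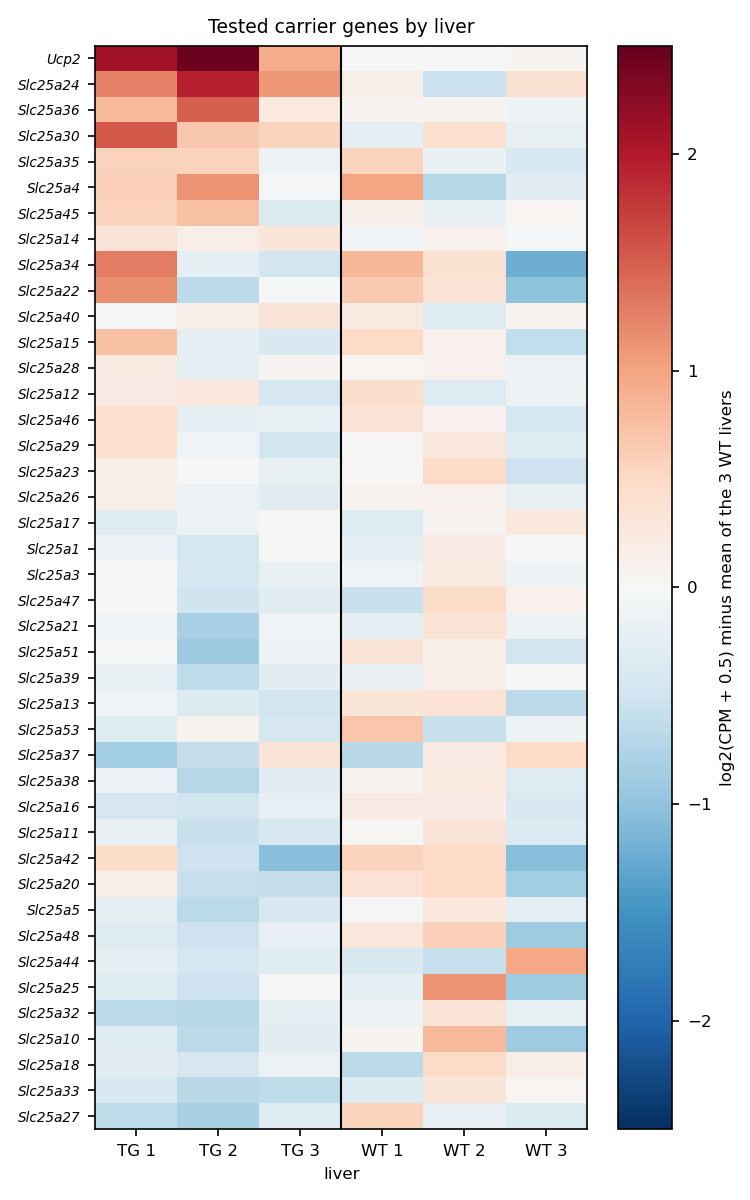
Log2(CPM + 0.5) of 42 tested carrier genes in each liver, as the difference from the mean of the 3 WT livers, with TG left of WT; 1 of the 43 tested genes is not shown. Ucp2, Slc25a24, Slc25a36 and Slc25a30 are above the WT mean in the 3 TG livers, and many other genes are low in TG replicates 2 and 3 and in WT replicate 3.

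The number of carriers counted as lower depended on single livers. At an unadjusted p below 0.05 it was 2 with all livers. It was 1 when TG replicate 1 was left out, 0 for TG replicate 2 and 2 for TG replicate 3. It was 2 when WT replicate 1 was left out, 0 for WT replicate 2 and 9 for WT replicate 3. The number of all genes counted as lower moved as well, and was 333 of 14031 with all livers. Without TG replicates 1 to 3 in turn it was 239 of 14380, 191 of 14363 and 451 of 14482. Without WT replicates 1 to 3 in turn it was 365 of 14434, 248 of 14564 and 859 of 14459. Without WT replicate 3, the 9 lower and 3 higher members stand beside 5.94% and 10.2% of all genes in that fit, and 0 passed edgeR's test after adjustment (0.0% of all genes). The 9 were Slc25a10, Slc25a48, Slc25a20, Slc25a32, Slc25a13, Slc25a33, Slc25a16, Slc25a11 and Slc25a38, with log2 fold changes between -0.90 and -0.53. Without WT replicate 2 those of the same genes lay between -0.43 and -0.09.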

How the data were processed

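Liver RNA of 6 mice was compared. The authors deposited whole-number read counts for each Ensembl gene. Per the submitters' processing notes, the tools were TopHat and Cufflinks and the build mm10; the sources used here do not name the counting program, annotation or strand setting. The labels give genomic DNA as the molecule, although the protocols describe RNA. Symbols were found for 52403 of 52550 identifiers, and biotypes, positions and exon lengths came from GENCODE on that build.

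Genes with low counts were dropped by edgeR's filterByExpr, and 14031 remained. The contrast was TG minus WT on the log2 scale in edgeR's two-sided quasi-likelihood test (edgeR 4.0.16 under R 4.3.3, TMM, robust), adjusted by Benjamini-Hochberg over all genes at a threshold of 0.05. SE is the fold change over the root of F. Replicates are separate mice per the series' design text. DESeq2 (1.42.0), limma voom (3.58.1), other scalings and filters, the replicate block and leaving out each liver were alternatives. The fits were also run on simulated counts in which all genes had the same variability, a simpler case than these livers. Members and lists were chosen with earlier results of these data known. The genes named were a set of 14 members, the 10 further members with the smallest p, members with groups apart, the 3 highest per length and the 2 genes of each list with the smallest p; other members are accounted for by class, and some genes are not reported here. Floors cover counting error only. As the strand setting is not known, reads of genes overlapping on opposite strands cannot be assigned with certainty. Slc25a26 shares 144 of 4807 exonic bases with Lrig1, at 37.3 CPM in TG livers against 40.3 CPM in WT livers. Slc25a18 shares 32 of 1911 with Atp6v1e1, at 109 CPM in TG livers against 110 CPM in WT livers.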

Additional observations from a re-analysis of the deposited data

How the results depend on the processing

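Counts of calls, the family's median and the named members' fold changes were recomputed under 8 other settings and without each liver in turn, and groups apart under the scalings and filters only; levels per length, ratios and medians by liver were not. EdgeR called 0 genes, DESeq2 390 and limma voom 1, and over the livers left out in turn edgeR called 0 to 305, with 305 without TG replicate 3. Carriers called numbered 0, were 2 with DESeq2 and 0 to 1 over the livers left out. Carriers lower at an unadjusted p below 0.05 numbered 2, and 0 with library size only, 0 with the replicate block and 0 to 9 over the livers left out. All genes counted so numbered 333, and 95 with library size only, 247 with the replicate block and 191 to 859 over the livers left out. Deviations of same-numbered livers had correlations of 0.15, -0.22 and 0.11, and those of differently numbered livers -0.26 to 0.14. No clear pairing by replicate number was seen, but so few values cannot exclude one. Of the values of 24 named members and Slc7a11, 340 kept their direction and side of the threshold, 6 moved past the threshold and 4 reversed. Slc25a26 was 0.037 with library size only. Over the livers left out, Slc25a15 lay between -0.38 and 0.33 and Slc25a40 between -0.0082 and 0.26. The cause was not tested. Few counts in some members and the 3 livers per group limit what could be detected at this depth. With all livers, edgeR's test did not call Slc7a11 either.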

Other observations

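Among the tested members, 8 of 43 (18.6%) had a highest liver at least 1.5-fold above the next highest, against 13.4% of all tested genes. The widest such gaps, chosen after their values were seen, were 2.32-fold for Slc25a44 in WT replicate 3 and 2.19-fold for Slc25a25 in WT replicate 2. TG replicate 1 was the highest liver for Slc25a30, by 1.82-fold, and for Slc25a22, by 1.41-fold.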
